A study of Mus musculus with 12 samples.

Results

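Major urinary proteins (MUPs) are small secreted proteins of the lipocalin family, encoded by the Mup genes. The 5 genes Mup3, Mup4, Mup5, Mup20 and Mup21 are described here in submandibular glands (SMGs) of C57BL/6J and C57BL/6J-Pou2f3-/- mice. They were selected by symbol and are 5 of the 56065 genes in the deposited count table and 5 of its 48 annotated Mup genes and pseudogenes. Mup5 was picked because its counts were lower in Pou2f3-/- females, so its values in that comparison are a description and carry no test. Mup5 was one of the most abundant messenger RNAs of the wild-type female gland and stood 8.03-fold lower in Pou2f3-/- females, at the level of both male groups. Mup4 was a low-level transcript found in all 6 males and 1 of 6 females, and Mup3 and Mup21 never exceeded 3 counts, while Mup20 did so in 1 library, with 4.55.

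MUPs fold into a barrel that holds small hydrophobic molecules, and in urine they bind volatile pheromones and release them slowly. The liver is their main source, where growth hormone pulses, androgens, thyroid hormone and glucocorticoids are known to raise several of them, and males usually make more than females. Some family members are instead known from salivary, lacrimal and nasal glands. The protein of Mup20 is darcin, a male urinary protein that attracts females.

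SMG RNA came from 12 mice that were 8 weeks old, 3 mice in each of 4 groups: female wild type and male wild type (C57BL/6J), and female and male Pou2f3-/- (strain C57BL/6J-Pou2f3em1Cbwi/J, named C57BL/6J-Pou2f3 knockout in the labels). Pou2f3 encodes the transcription factor that tuft cells, a rare chemosensory epithelial cell type, depend on, and it is deleted in the whole animal, not in 1 cell type. The knockout was kept as its own strain and no littermate controls are described, so the loss of Pou2f3 and other differences between the strains cannot be told apart. The study asked how the loss of tuft cells changes the gland in each sex.

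Total counts ranged from 47032175 to 67882207 per library. The limit that a count of 0 sets is 3 counts, or 0.0399 to 0.0782 CPM, the count relative to the adjusted library size, and it covers counting error only. All 7 markers of seromucous acinar cells, the saliva-producing cells of this gland, were present in every library. Pou2f3 itself reached at most 2 counts in wild-type females, 0 in Pou2f3-/- females, 10 in wild-type males and 3 in Pou2f3-/- males, too few to check the genotype labels. A pair of libraries stood apart by markers of the adjoining sublingual gland: the 5 markers summed to 5910 CPM in Pou2f3-/- female mouse 3 and 9060 CPM in wild-type male mouse 3, against 3.51 to 240 CPM in the other libraries. Parotid markers summed to 2950 CPM in Pou2f3-/- male mouse 2 and 631 CPM in wild-type male mouse 3, against 4.90 to 61.5 CPM elsewhere.

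The Mup genes lie together on mouse chromosome 4. In the Gencode M39 annotation on GRCm39, 22 protein-coding Mup genes and 26 pseudogenes fill a stretch of 2112 kb (chr4:59956804-62069175) that holds no other protein-coding gene. Mup4 (chr4:59956804-59960710) and Mup21 (chr4:62066056-62069175) are its outermost genes. Mup5 lies between them at chr4:61749556-61753470, and the annotated span of Mup3 (chr4:61947447-62005620) encloses Mup20 (chr4:61968464-61972395). All 5 are on the minus strand.

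The copies are alike enough that reads can fit more than 1 of them, which matters for how far counts of single Mup genes can be trusted. Over the whole coding sequence, Mup5 was 92.0% identical to Mup4, 91.2% to Mup20, 86.2% to Mup21 and 85.0% to Mup3, with gaps counted as differences. The stretch of the coding sequence where Mup5 and Mup4 differ most over 1 read length (100 bases), among stretches that align without gaps in all 5 genes, is printed below from the GRCm39 transcripts, 5′ to 3′. It covers coding bases 415 to 514 of Mup5 and spans 2 exons (chr4:61750792-61751232, minus strand). Capitals mark bases that differ from Mup5.
Mup5: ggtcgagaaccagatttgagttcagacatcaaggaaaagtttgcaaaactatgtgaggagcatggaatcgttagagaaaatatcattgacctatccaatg
Mup4: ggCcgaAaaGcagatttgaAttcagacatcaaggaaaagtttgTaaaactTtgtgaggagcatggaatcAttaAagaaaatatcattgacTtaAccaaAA
Mup3: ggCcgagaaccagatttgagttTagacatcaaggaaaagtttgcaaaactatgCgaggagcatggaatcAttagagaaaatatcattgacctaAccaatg
Mup20: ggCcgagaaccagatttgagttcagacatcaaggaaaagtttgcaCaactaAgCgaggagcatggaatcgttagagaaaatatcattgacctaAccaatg
Mup21: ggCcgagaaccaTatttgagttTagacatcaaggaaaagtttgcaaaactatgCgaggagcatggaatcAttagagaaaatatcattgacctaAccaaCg
In this stretch Mup4 differed from Mup5 at 12 of 100 bases, Mup21 at 7, and Mup3 and Mup20 at 5 each. All 31-base words of the transcripts, the length at which Salmon matches reads by default, were then compared with every other gene of the annotation. In Mup5, 473 of 895 words (52.8%) occurred in no other gene, and its closest relative was Mup4, with 213 words in common. The share of such words was 61.9% in Mup4, 85.2% in Mup3, 55.0% in Mup20 and 74.4% in Mup21. In each of the 5 genes most words were thus its own, unlike Mup22, a family member outside the 5, with 6.10%.

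Mup5 was the main Mup transcript of the gland in every library. Normalized counts, which are counts scaled to a common library size, were 37927, 31368 and 39955 in the 3 wild-type females. Pou2f3-/- females had 4828, 5039 and 3729, wild-type males 3054, 5330 and 2268, and Pou2f3-/- males 4287, 4348 and 3442. The wild-type females stood above all 9 other mice, whose values overlapped between their 3 groups.

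**Figure D1:**
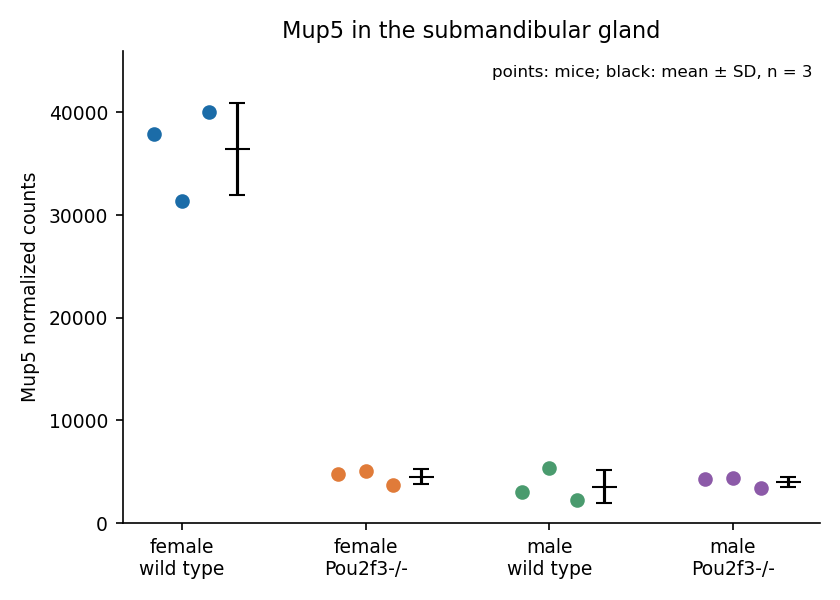
Mup5 normalized counts (vertical axis, linear) in each SMG, by group; points are mice and black marks the mean ± SD of 3 mice. The 3 wild-type females lie between 31368 and 39955, and the other 9 mice between 2268 and 5330.

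The mean was 36417 ± 4490 normalized counts in wild-type females, 4532 ± 703 in Pou2f3-/- females, 3550 ± 1590 in wild-type males and 4026 ± 506 in Pou2f3-/- males (SD, n = 3 each). The order of the levels was thus wild-type females first, with the 3 other groups overlapping. Per length, Mup5 reached 681 ± 84.0 CPM per kilobase in wild-type females and 66.4 ± 29.7 in wild-type males. Ranked by CPM per kilobase among 14181 protein-coding genes, it stood at place 16 to 19 in wild-type females, 47 to 60 in Pou2f3-/- females, 74 to 150 in wild-type males and 81 to 102 in Pou2f3-/- males. In a bulk sample, fewer cells that make Mup5 and less Mup5 RNA per cell cannot be told apart.

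Between genotypes in females, the contrast on which Mup5 was picked, the log2 fold change was −3.01 (SE 0.27), or 8.03-fold lower in Pou2f3-/- mice. The groups did not overlap. Of the 17893 genes tested, 36.9% passed an adjusted p of 0.05 in this contrast, 17.6% as higher and 19.3% as lower, and 39 genes (0.218%) had a fold change more negative than that of Mup5. No reading beyond this description is taken from the contrast, since it chose the gene.

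Between genotypes in males, Mup5 did not pass the test. The log2 fold change was 0.18 (SE 0.25, adjusted p = 0.85 by the quasi-likelihood test of edgeR, adjusted after Benjamini-Hochberg), and all 3 Pou2f3-/- males lay within the range of the wild-type males. Genes that passed were rare in this contrast, 42 of 17893 (0.235%), with 0.101% higher and 0.134% lower. That number moved with the fit, to 13 to 635 with 1 mouse left out, 389 without a count filter and 388 by DESeq2. The sign of the Mup5 difference rested on 1 mouse: without wild-type male mouse 3, the library rich in sublingual markers, it was −0.06 (adjusted p = 0.98 by edgeR). Whether the female and male genotype differences differ from each other was not tested, because the female one chose the gene.

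Between the sexes in wild type, Mup5 was 10.3-fold lower in males (log2 fold change −3.36, SE 0.27), without overlap. In CPM the means were 630 and 61.4, or 433 and 75.2 without TMM, the scaling that adjusts library sizes for abundant genes, so the size of the difference depends on the scaling. Of all genes tested, 36.5% passed in this contrast, 16.0% lower in males, and 56 genes were more negative than Mup5. Between the sexes in Pou2f3-/- mice, the Mup5 log2 fold change was −0.17 (SE 0.25), with overlapping groups, in a contrast where 43.5% of genes passed, 23.2% as higher and 20.3% as lower in males. Both sex contrasts use libraries on which Mup5 was picked, so no p is given for it.

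**Figure D2:**
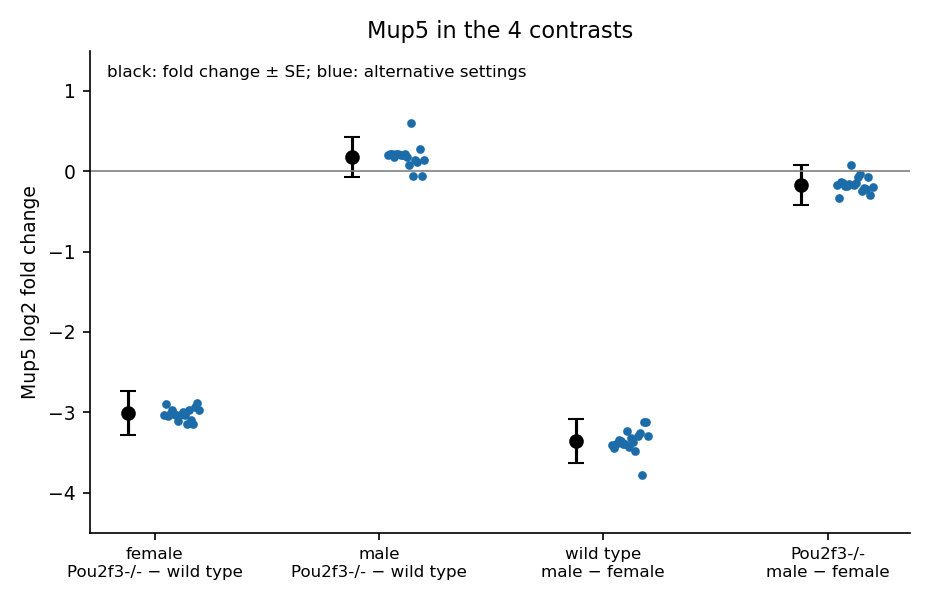
Mup5 log2 fold change (vertical axis) in the 4 contrasts. Black points are the fold change ± SE, and blue points are the alternative settings; those of the female genotype contrast lie between −3.15 and −2.89 and those of the male genotype contrast between −0.06 and 0.60.

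Acinar markers moved with Mup5 in the female genotype and wild-type sex contrasts, and their part in its differences was not tested. The 7 markers summed to 378000 to 596000 CPM in wild-type females, 219000 to 260000 in Pou2f3-/- females, 86600 to 145000 in wild-type males and 76600 to 118000 in Pou2f3-/- males, most of it from Mucl2, a mucin-like secreted protein. In Pou2f3-/- females 5 of the 7 passed as lower and none as higher, with a median log2 fold change of −0.93 against 0.03 over all genes, of which 19.3% passed as lower. In wild-type males all 7 passed as lower than in females, with a median of −1.18 against 0.06, where 16.0% of all genes passed as lower. In Pou2f3-/- males 6 of the 7 also passed as lower than in Pou2f3-/- females, with a median of −0.83 against −0.02 and 20.3% of all genes lower, while the Mup5 value in that contrast was −0.17. Markers of the granular convoluted tubule, a duct segment that is larger in males, were higher in wild-type males for 7 of 8 (median 6.23, 20.5% of all genes higher) and in Pou2f3-/- males for 7 of 8, with 1 lower (median 5.70, 23.2% of all genes higher). The 8 tubule markers summed to 922 to 2440 CPM in the 6 females and 68900 to 126000 CPM in the 6 males. Of the tubule markers, 2 of 8 passed as higher in Pou2f3-/- females and none as lower (median 0.29, 17.6% of all genes higher). Adipocyte markers were lower in Pou2f3-/- females for 2 of 5 (median −3.13, 19.3% of all genes lower). They were lower in wild-type males for 4 of 5 (median −4.63, 16.0% of all genes lower). In Pou2f3-/- mice they were higher in males for 4 of 5 (median 3.29, 23.2% of all genes higher). Their sum in wild-type females was 41.6 CPM in mouse 3, against 3.25 and 5.77 CPM in mice 1 and 2. Aqp5, the acinar water channel, had 301 CPM in wild-type females and 157 in Pou2f3-/- females (log2 fold change −0.94, SE 0.16, adjusted p = 0.0011 by edgeR with Benjamini-Hochberg adjustment).

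Genes whose log2 CPM across the 12 libraries was most like that of Mup5 were Serp1 (Pearson r = 0.978), 4930453N24Rik (0.968), Aldh18a1 (0.967), Crk (0.966) and Jtb (0.965). Serp1 encodes a small protein of the endoplasmic reticulum membrane, Aldh18a1 an enzyme of proline synthesis and Crk a signalling adaptor. Like Mup5, all 5 were highest in wild-type females: Serp1 had 1330 CPM there against 621, 579 and 558 CPM in Pou2f3-/- females, wild-type males and Pou2f3-/- males. The wild-type females dominate these values. Over the other 9 libraries r was 0.74 for Serp1, 0.38 for Aldh18a1 and 0.83 for Jtb. The points share libraries and depth, and the coefficients are a description. The fold changes of these genes were much smaller than that of Mup5, between −1.10 (Serp1) and −0.49 (Crk) in the female genotype contrast.

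Mup4, best known from nasal and lacrimal tissue, showed another pattern at far lower counts. It had 0 counts in each of the 3 wild-type females, where Mup5 had its 24189 to 33737 counts, so no Mup5 reads were credited to Mup4 there. Wild-type males had 26, 21 and 235 counts, Pou2f3-/- males 19, 6 and 13, and Pou2f3-/- females 0, 0 and 84. Mup4 was thus above 3 counts in all 6 males and in 1 of 6 females, and the highest counts of the female and the male mice were in the same pair of libraries that were rich in sublingual markers.

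In normalized counts Mup4 had a mean of 77.0 ± 101 in wild-type males and 11.7 ± 6.05 in Pou2f3-/- males (SD, n = 3 each). Per kilobase it had 1.45 CPM in wild-type males, against 66.4 for Mup5. The mean of Pou2f3-/- females, 34.7 ± 60.1, came from 1 mouse. In both groups that held a sublingual-rich library, the SD exceeded the mean.

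In wild-type mice Mup4 was higher in males, by at least 19.6-fold with 3 counts set for each wild-type female library. The adjusted p was 0.031 by edgeR with Benjamini-Hochberg adjustment. Over alternatives it was 0.00067 to 0.11, a range that holds no DESeq2 value for Mup4. With 0 counts in every wild-type female, Mup4 passed the filter on low counts only through other libraries. This p is therefore no independent support. Mup4 was higher in 3 of 3 wild-type males than in any wild-type female. In this contrast 20.5% of genes tested were called higher in males. Without wild-type male mouse 3 the lower bound was 4.74-fold and the call was lost (adjusted p = 0.11 by edgeR). It was also lost without any 1 of the wild-type females (adjusted p = 0.069, 0.072 and 0.071 by edgeR). The fitted log2 fold changes without 1 female were 9.27, 9.29 and 9.31, against 9.27 with all mice. Without both sublingual-rich libraries the call held (adjusted p = 0.0044 by edgeR) at a smaller fitted value of 7.23. Without both libraries highest in adipocyte markers it was lost (adjusted p = 0.085 by edgeR), although the fitted value was 9.31. These fitted values are no bounds.

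In males, Mup4 did not pass between genotypes (log2 fold change −2.70, SE 1.49, adjusted p = 0.53 by edgeR), with overlapping groups. Without wild-type male mouse 3 the value was −0.66 (adjusted p = 0.96). Between Pou2f3-/- females and males the value was −1.53 (SE 1.51, adjusted p = 0.45 by edgeR). This direction rested on Pou2f3-/- female mouse 3: the other Pou2f3-/- females had 0 counts, and without it Pou2f3-/- males were at least 3.68-fold higher (adjusted p = 0.071 by edgeR). Without both sublingual-rich libraries the adjusted p was 0.010 by edgeR. Every female left then had 0 counts, and Mup4 passed the filter on low counts through males alone. In females, Mup4 had 0 counts in 5 of 6 mice, and any fitted difference between genotypes rests on 1 mouse.

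Sublingual and parotid markers gave these values beside Mup4. Muc19, the main mucin of the sublingual gland, had 4902 CPM in Pou2f3-/- female mouse 3 and 7393 CPM in wild-type male mouse 3, and 2 to 174 CPM in the other mice. As a description, the correlation of Mup4 with Muc19 was r = 0.63 over 12 libraries and −0.19 over the 10 others. With the markers Dcpp1, Dcpp2 and Dcpp3 it was 0.58, 0.71 and 0.67 over 12 libraries, and 0.074, 0.23 and 0.11 over the 10 others. With the parotid markers Amy1 and Bpifa2 it was 0.38 and 0.42 over 12 libraries, and 0.38 and 0.043 over the 10 others. Parotid sums were 61.5 CPM in Pou2f3-/- female mouse 3 and 631 CPM in wild-type male mouse 3. Pou2f3-/- male mouse 2, with a parotid sum of 2950 CPM, had 6 counts of Mup4. Mup4 in the 5 other males, at 6 to 26 counts, was found in libraries with sublingual sums of 3.51 to 124 CPM, while wild-type female mouse 2, with a sum of 240 CPM, had a Mup4 count of 0.

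**Figure D3:**
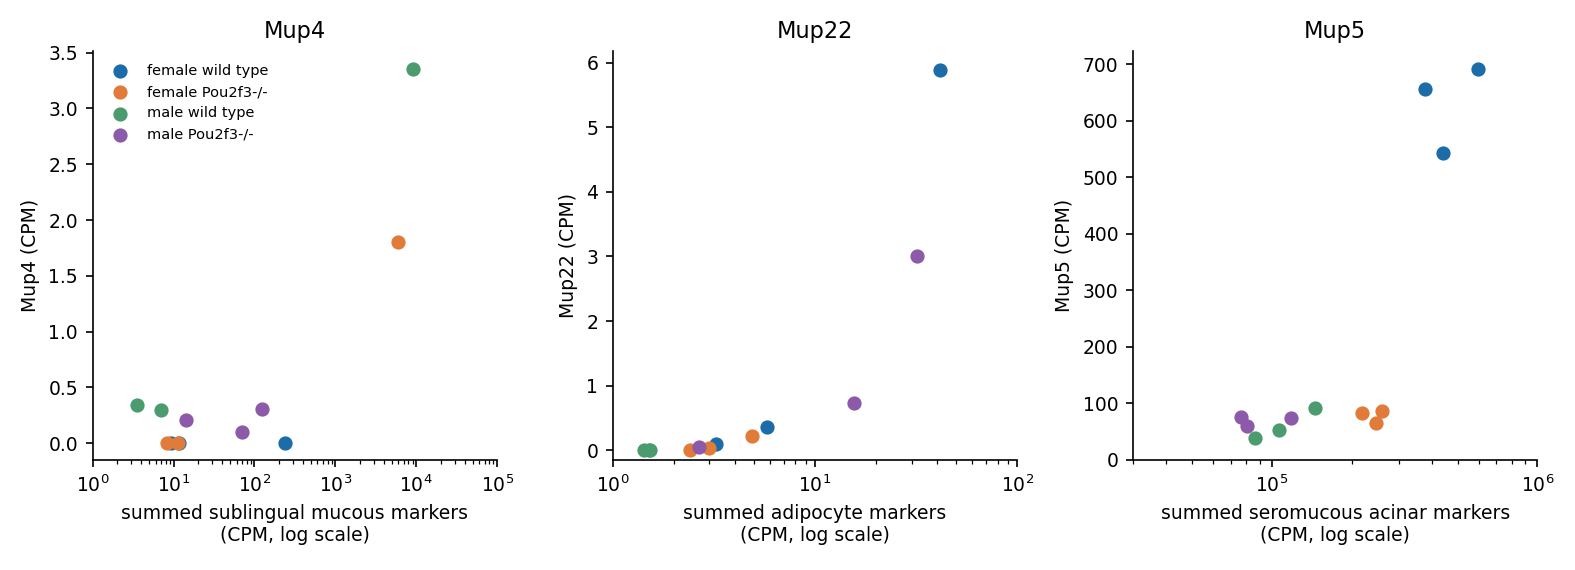
Level of Mup4, Mup22 and Mup5 (vertical axes, CPM) against the summed CPM of sublingual, adipocyte and acinar markers (horizontal axes, log scale), 1 point for each of the 12 libraries, coloured by group. Mup4 is highest in the libraries with sublingual sums of 5910 and 9060 CPM, Mup22 in those with the highest adipocyte sums, and Mup5 in wild-type females.

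Genes most like Mup4 were Tmc5 (r = 0.911), Mup6 (0.908) and Dnajc10 (0.905) over 12 libraries. Without the pair of sublingual-rich libraries, r was 0.76, 0.84 and 0.84. Dnajc10 encodes a disulfide reductase of the endoplasmic reticulum, and Mup6 lies beside Mup4 in the cluster (chr4:59964133-60007274).

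Mup3, a gene known from liver, was at the detection limit. The 3 wild-type females had 0, 1 and 2 counts of it. It had 0, 1 and 0 in Pou2f3-/- females, 0 in all 3 wild-type males and 0, 2 and 3 in Pou2f3-/- males. No library exceeded 3 counts, so a difference between groups was not detectable at this depth.

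Mup20 had 2, 1 and 0 counts in wild-type females and 0 counts in all Pou2f3-/- females and wild-type males. Pou2f3-/- males had 0, 0 and 4.55 estimated counts, so 1 library of 12 stood above 3 counts. Darcin transcripts were thus not detected in wild-type male SMGs, where the 3 counts that a 0 allows correspond to at most 0.0428 CPM. In the 1 library above 3 counts of Mup20, Pou2f3-/- male mouse 3, 4 of 7 liver markers also exceeded 3 counts. Of these, Apoa2 had 6 to 13 counts in every male library. Pou2f3-/- female mouse 2 also had 4 of 7 above 3 counts, with a Mup20 count of 0. Which tissue these marker counts came from was not determined, and the part of such transcripts in the Mup20 count was not tested.

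Mup21 had 1 count in 1 wild-type female, 1 count in 1 wild-type male and 0 in the other 10 libraries. Mup3, Mup20 and Mup21 did not pass the filter on low counts, and of the 5 genes only Mup4 and Mup5 were tested.

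**Figure D4:**
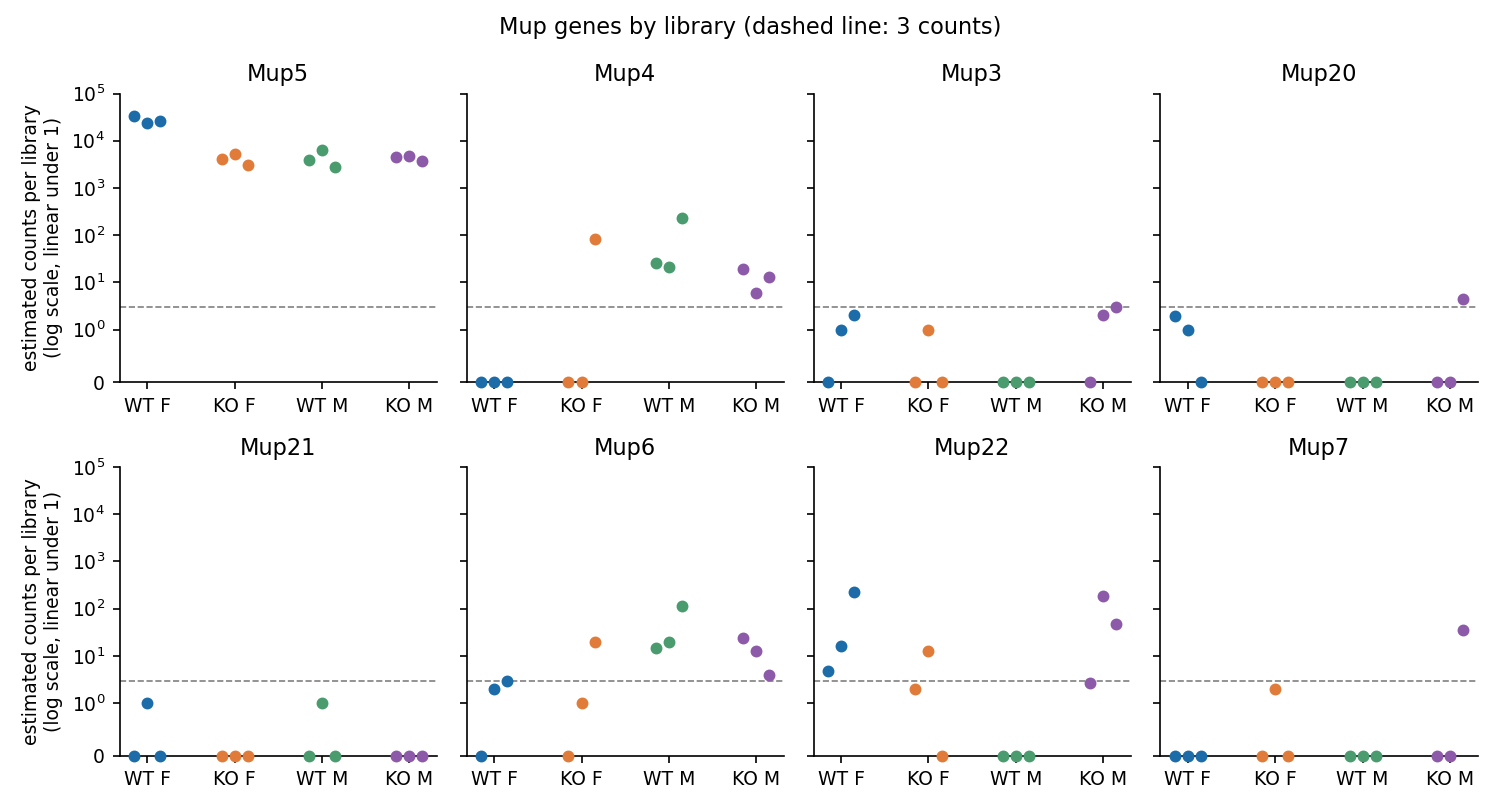
Estimated counts per library (vertical axis, log scale, linear under 1) of the 5 genes and of Mup6, Mup22 and Mup7, by group (WT, wild type; KO, Pou2f3-/-; F, female; M, male). Points are the 12 libraries and the dashed line marks 3 counts; Mup5 lies above 1000 counts throughout, and Mup3 and Mup21 never exceed 3.

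Set against the whole family, Mup5 held 99.10 to 99.96% of all Mup counts in wild-type females, 96.57 to 99.95% in Pou2f3-/- females, 88.71 to 99.36% in wild-type males and 95.43 to 98.99% in Pou2f3-/- males. The lowest share was in wild-type male mouse 3. Of the 48 Mup genes and pseudogenes, 28 had 0 counts in all 12 libraries and 37 never exceeded 3 counts. Only 6 exceeded 10 counts in any library: Mup5 and Mup4, and outside the 5 genes Mup22, Mup6, Mup7 and Mup11.

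Mup6 resembled Mup4. Wild-type females had 0, 2 and 3 counts, Pou2f3-/- females 0, 1 and 20, wild-type males 15, 20 and 115, and Pou2f3-/- males 24, 13 and 4. Among Pou2f3-/- females and wild-type males, its highest counts were in the same mice as those of Mup4. In wild type it was higher in males, without overlap, by at least 10.4-fold with 3 counts set for each wild-type female library. The fitted log2 fold change, which is no bound, was 4.14 (SE 1.40, adjusted p = 0.035 by edgeR with Benjamini-Hochberg adjustment, over alternatives 0.0043 to 0.20). At 3 counts or fewer in wild-type females, Mup6 passed the filter on low counts only through other libraries. This p is therefore no independent support. Without wild-type male mouse 3 the value was 2.59 and the call was lost (adjusted p = 0.20 by edgeR). The call was also lost without any 1 of the wild-type females (adjusted p = 0.10, 0.089 and 0.064 by edgeR), with values of 3.46, 4.24 and 4.92. Without both sublingual-rich libraries it was lost (adjusted p = 0.084 by edgeR) with the value down to 2.59. Without both libraries highest in adipocyte markers it was lost (adjusted p = 0.078 by edgeR), although the value was larger, at 4.92.

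Mup22 followed adipocyte markers instead. It had 4.84, 16.0 and 226 counts in wild-type females, 2, 13.0 and 0 in Pou2f3-/- females, 0 in the 3 wild-type males and 2.67, 185 and 47.4 in Pou2f3-/- males. Its highest counts were in the 3 libraries with the highest adipocyte marker sums, 41.6 CPM in wild-type female mouse 3 and 32.0 and 15.5 CPM in Pou2f3-/- male mice 2 and 3, against 1.42 to 5.77 CPM elsewhere. Across the 12 libraries its log2 CPM had r = 0.98 with Adipoq, the fat-cell hormone adiponectin, and 0.96 without the highest pair. In wild type Mup22 was at least 50.7-fold lower in males (adjusted p = 0.015 by edgeR, over alternatives 8.7e-05 to 0.076). With 0 counts in wild-type males, Mup22 passed the filter on low counts only through other libraries. This p is therefore no independent support. Without wild-type female mouse 3 the bound was 5.46-fold and the call was lost (adjusted p = 0.076 by edgeR). Without both sublingual-rich libraries the call was lost as well (adjusted p = 0.05 by edgeR), but the fitted log2 fold change stayed at −9.92, its value with all mice. Without both libraries highest in adipocyte markers the call held (adjusted p = 0.044 by edgeR) at a smaller fitted value of −6.77. These fitted values are no bounds. As 6.10% of its words were its own, its counts may include reads of other family members.

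The hormone receptors and factors known to control Mup genes in liver were measured as a list of 23, of which 20 were tested. In females, 1 was higher and 5 were lower in Pou2f3-/- mice by edgeR's adjusted p, with a median log2 fold change of −0.08 against 0.03 over all genes. Over all genes tested 17.6% were higher and 19.3% lower, so the number lower is near the background and the number higher is under it. Thra, a thyroid hormone receptor, rose by 0.56 (SE 0.11, adjusted p = 0.0017), while Cux2, a repressor of male-type genes in liver, had 1.34 (SE 0.56, adjusted p = 0.077). Socs2, a feedback inhibitor of growth hormone signalling, fell by 0.75 (SE 0.13, adjusted p = 0.0011), and Cebpb, a liver-enriched factor, fell by 0.51 (SE 0.14, adjusted p = 0.014).

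In males none of the 20 passed between genotypes by edgeR, where 0.235% of all genes passed. Between wild-type sexes, 2 were higher in males and 10 lower, with a median of −0.47 against 0.06. Of all genes tested 20.5% were higher in males and 16.0% lower. Ghr, the growth hormone receptor, was higher in males by 0.87 (SE 0.13) and Cish, an inhibitor of cytokine signalling, by 0.55 (SE 0.09). Prlr, the prolactin receptor, was lower (log2 fold change −1.19, SE 0.13), as was Igf1, a growth factor (−1.19, SE 0.37, adjusted p = 0.022 by edgeR). The liver factors Hnf4a and Foxa2 had at most 25 and 10 counts and were not tested.

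Other lipocalins and related carriers were counted as a list. Of 30 listed, 24 were in the table, 11 of those had 0 counts throughout, and 5 were tested. None of the 5 passed by edgeR between genotypes in females, where 36.9% of all genes passed, or in males, where 0.235% did. Between wild-type sexes 2 were higher in males and 1 lower, against 20.5% and 16.0% of all genes tested. Lcn2, an iron-siderophore carrier, had 0.955 CPM in wild-type females and 48.1 CPM in wild-type males, a log2 difference of 5.66 (SE 0.59, adjusted p = 1e-05 by edgeR), and Fabp5, a fatty acid carrier, went the other way (−0.68, SE 0.15, adjusted p = 0.0034). The odorant-binding protein genes Obp1a, Obp1b, Obp2a and Obp2b were at 0 in all libraries.

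The protein-coding genes beside the cluster, 5 on each side, were counted in the same way. Of the 9 tested, 1 was higher and 2 were lower in Pou2f3-/- females, near the 17.6% and 19.3% of all genes, and none passed in males, where 0.235% of all genes did. The most negative was Slc31a1, a copper transporter, with −0.98 (SE 0.11, adjusted p = 0.00015 by edgeR) in females, where Snx30 had 0.40 (SE 0.15, adjusted p = 0.048). Between wild-type sexes 3 were higher in males and 1 lower (20.5% and 16.0% of all genes), with Hsdl2 at 0.69 (SE 0.20) and Slc31a1 at −0.35 (SE 0.11).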

How the data were processed

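SMG RNA of 12 mice was sequenced by the authors from total RNA freed of ribosomal RNA, in stranded libraries (paired reads of 100 bases), although the labels call the molecule polyA RNA. The authors made estimated counts with Salmon 1.10.1 against Gencode M35 on GRCm39 and deposited them per gene; the deposited normalized signal holds these counts divided by a gene and library factor, whose making is not given in the sources used here, and served as an alternative only. Of the 56065 identifiers, 55563 matched Gencode M39, which gave symbols, positions and sequences. Columns were matched to mice by name.

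The rounded estimated counts were fitted with edgeR 4.0.16 in R 4.3.3 (limma 3.58.1): TMM, filterByExpr (17893 genes kept), 1 mean per group over 12 libraries, quasi-likelihood test, Benjamini-Hochberg adjustment over all genes tested within each of 4 contrasts (threshold 0.05). TMM factors were 0.625 to 0.759 in wild-type females and 0.902 to 1.45 elsewhere; the 20 most abundant genes took 77.2 to 80.0% of counts in wild-type females and 53.2 to 76.0% elsewhere. The SE is the absolute log2 fold change over the square root of F. Normalized counts were CPM after TMM, multiplied by the average effective size of the 12 libraries; log2 CPM used a prior count of 2. Fold bounds set 3 counts in each library of a group at or under 3. Levels between genes use exonic length. Biopython 1.88 aligned coding sequences; matplotlib 3.10.9 drew the plots, with numpy 2.4.6 and pandas 2.3.3 under Python 3.11.15.

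The genes and lists were chosen with earlier results of these data known. Named beside the 5 genes were other Mup genes over 10 counts, the 5 genes most like Mup5 and 3 most like Mup4, and at most 4 genes of a list (the 2 highest and 2 lowest fold changes). No 2 libraries were identical, and no value column was left unused. Alternatives were RLE and upper-quartile factors, the 20 most abundant genes left out of library sizes, no count filter, a minimum of 10 counts in all libraries, only the groups compared, DESeq2 1.42.0, the authors' factors, a replicate block, the family summed, and each mouse left out. Leaving out both libraries highest in Muc19, or both highest in adipocyte markers, was added after seeing the data. Tested on simulated data of 17564 genes with 200 changed 3-fold in the male genotype contrast, the fit recovered 71.5%, with 4.67% of its 150 calls false.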

Additional observations from a re-analysis of the deposited data

How the results depend on the processing

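In the female genotype and wild-type sex contrasts the Mup5 groups did not overlap and hold libraries on which Mup5 was picked. The sign was thus fixed beforehand and is no support. As a description, the Mup5 log2 fold change over the 18 alternatives was −3.15 to −2.89 and −3.78 to −3.12 in these contrasts. With mice left out the Mup5 log2 fold change was −3.15 to −2.93 and −3.78 to −3.12. In the male genotype contrast it ran from −0.06 to 0.60 with mice left out and was −0.06 without both libraries highest in Muc19, and did not pass in any setting (adjusted p 0.23 to 1 by edgeR or DESeq2). In the knockout sex contrast it was 0.08 with the authors' factors. Without TMM, the mean Mup5 level was 433 in place of 630 CPM in wild-type females, 76.3 in place of 78.4 in Pou2f3-/- females, 75.2 in place of 61.4 in wild-type males and 82.5 in place of 69.7 in Pou2f3-/- males, which narrows the wild-type sex difference by over 1.5 times. Mup4 rests on few counts. Its wild-type sex value was 7.20 to 9.71 with mice left out and 9.31 without both libraries highest in adipocyte markers (adjusted p = 0.085 by edgeR). Its knockout sex value was −2.09 to 6.61 with mice left out, 6.56 without both libraries highest in Muc19 and 0.24 with the replicate block, and DESeq2 fitted 21.64 for its female genotype value, where 5 of 6 mice had 0 counts. Fitted values against groups at 0 depend on the prior count and are no bounds. Mup6 changed sign between females (−1.90 to 2.61 with mice left out, −1.86 without both libraries highest in Muc19) and between Pou2f3-/- sexes (−0.06 to 4.36 with mice left out). The number of genes called in males, 42 in the design used, was 389 without a count filter, 388 by DESeq2, 13 to 635 with mice left out (635 without Pou2f3-/- male mouse 1), 8 without both libraries highest in Muc19 and 9 without both highest in adipocyte markers. The replicate numbers are not stated to pair mice, and the correlation of same-numbered libraries' deviations lay between −0.13 and 0.27. Of 6 libraries in each contrast, 2 correlated best with their own number, or 4 in the knockout sex contrast. With the replicate block the calls were 6349, 44, 6293 and 7597, in place of 6611, 42, 6523 and 7790, in the female, male, wild-type sex and knockout sex contrasts. The cause of these shifts was not tested. At this depth, genes that never exceed 3 counts, Mup3 and Mup21 among them, cannot be compared between groups.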

Other observations

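Mup7 and Mup11, urinary family members outside the 5 genes, were present in Pou2f3-/- males at low counts. Mup7 had 35 estimated counts in mouse 3 of that group, 2 in Pou2f3-/- female mouse 2 and 0 in the other 10 libraries. Mup11 had 9.32 and 11.6 estimated counts in Pou2f3-/- male mice 2 and 3, and at most 1.37 elsewhere. Of their 31-base words 17.9% in Mup7 and 15.5% in Mup11 occurred in no other gene, and the same Pou2f3-/- male mice 2 and 3 had 185 and 47.4 counts of Mup22, so these counts may include reads of other family members. In Pou2f3-/- male mouse 3 the liver markers Alb, Apoa1 and Apob had 22, 12 and 9 counts, and 4 of the 7 liver markers exceeded 3 counts there. The remaining marker of these, Apoa2, had 7 counts there and 6 to 13 counts over all males. Pou2f3-/- female mouse 2 also had 4 of 7 above 3 counts, with 455 counts of Apob, 65 of Apoa1, 11 of Alb and 4 of Fabp1. Its counts of Apoa2, Serpina1c and Tat were 1, 0 and 0, and its Mup7 count was 2. In the other 10 libraries at most 1 of the 7 liver markers exceeded 3 counts. Which tissue these marker counts came from was not determined, and the part of such transcripts in the Mup counts was not tested.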
